A study of Saccharomyces cerevisiae with 6 samples.

Results

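The mating pheromone response of budding yeast was examined through 35 genes, taken by name from the pathway and found in the gene symbol column of the authors' fold change table. Each of the 35 was read by 1 probe set, out of 5420 genes read by a probe set of their own. The 35 were grouped as 12 genes of the receptor and kinase cascade, 12 pheromone-induced genes, called induced fusion genes below, and 11 others. Most of the induced fusion genes serve adhesion or fusion, but PRM4, PRM6 and PRM10 are other pheromone-regulated membrane proteins. The adhesion genes SAG1 and AGA2 stand among the 11 others. The samples were 3 cultures grown with 300 ng/ml myriocin, an inhibitor of serine palmitoyltransferase and so of sphingolipid synthesis, and 3 control cultures without it. All 6 were of the wild-type strain DBY746, held 0.3% ethanol, were grown at 30 °C in SDC medium at pH 6 and were harvested at an A600 of 2. No pheromone or mating partner is named in the labels, so the values describe the pathway in cells of a single strain that were not deliberately stimulated. Per the series' design text the 3 cultures of a group were biological replicates.

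Haploid yeast cells come in mating types a and α, each of which secretes a peptide pheromone that the other type detects. A receptor of the cell surface releases the βγ part of a heterotrimeric G protein, which recruits a scaffold with a chain of kinases ending in the MAP kinases Fus3 and Kss1. Fus3 and Kss1 activate the transcription factor Ste12, which turns on genes for arrest of the cell cycle, adhesion between partners, cell fusion and fusion of the nuclei. Several of these genes have a basal level without pheromone that depends on the same pathway.

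Values are log2 signals as deposited, in which a difference of 1 is a doubling or a halving and the highest value on any array was 15.88. A background ceiling of 2.07 was set at the highest value of 50 probe sets that serve as negative controls. Between 95.4% and 95.7% of genes lay above it on each array, and replicate arrays of a group correlated at 0.9928 to 0.9964 across genes. With 3 arrays a group setting the precision, log2 fold changes had a standard error (SE) of 0.11 in the median gene. In such bulk samples, fewer cells of a type and less RNA per cell cannot be told apart. Hybridisation controls, added to each sample, were lower on myriocin arrays at all 26 probe sets above background (log2 fold change -0.96 to -0.04), and probe sets for ribosomal RNA were lower at 16 of 17, with a median of -1.61. When arrays were scaled to the hybridisation controls, every log2 fold change moved up by 0.315, and the median over all genes moved to 0.29, against -0.03 as deposited. The part of this scale difference in small changes was not tested, and it is given below for each named gene whose call depends on it and for each list as a count.

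DBY746 is known as a strain of mating type α, which the labels do not state, and the mating-type genes on the arrays were those of an α cell. The receptor gene STE3 had log2 signals of 14.16, 14.31 and 14.26 on myriocin arrays and 14.78, 14.67 and 14.47 on control arrays. SAG1, the gene of α-agglutinin, had 14.23, 14.47 and 14.41 on myriocin arrays and 14.98, 14.98 and 14.86 on control arrays. MF(ALPHA)1, the main gene of the α pheromone, read 15.37, 15.39 and 15.48 on myriocin arrays and 15.49, 15.51 and 15.47 on control arrays, close to the top of the range. These genes were far above background on every array, while most genes of mating type a were at or near it. ASG7, MFA1 and MFA2 were under the ceiling on all 6 arrays, with log2 signals no higher than 1.68 for MFA1. BAR1, which encodes the protease that destroys α pheromone, read 2.21 to 2.28 on myriocin arrays and 2.22 to 2.27 on control arrays, a level just over the ceiling that was nearly the same everywhere. STE2, the receptor gene of a cells, read 2.08, 1.80 and 1.79 on myriocin arrays and 2.29, 3.03 and 2.05 on control arrays, and AGA2, the adhesion subunit gene of a-agglutinin, 2.16, 2.11 and 1.92 against 2.61, 2.76 and 2.17. The exception was STE6, which encodes the exporter of a pheromone. It read 7.22, 7.08 and 7.13 on myriocin arrays and 7.17, 6.79 and 6.51 on control arrays, well above the ceiling.

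**Figure D1:**
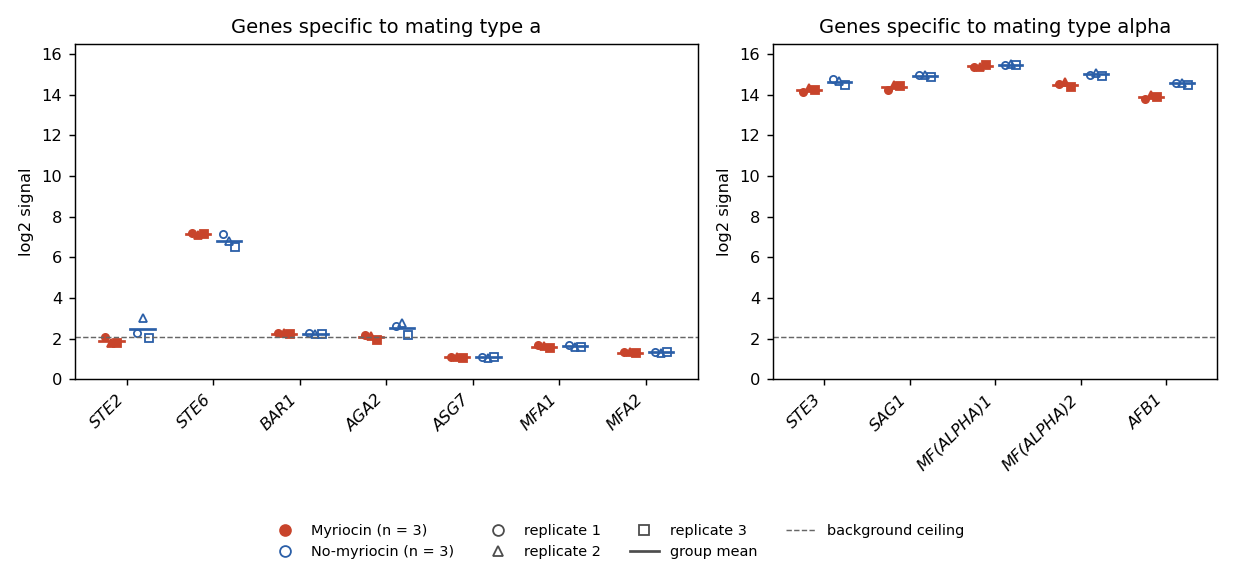
Log2 signal (vertical axis) of genes specific to mating type a (left panel) and to mating type α (right panel) on each of the 6 arrays; filled red symbols are myriocin arrays, open blue symbols control arrays, symbol shapes replicates and short lines group means. The dashed line is the background ceiling of 2.07: the 5 α genes stay above 13 in both groups, and of the 7 a genes STE6 lies at 6.51 to 7.22, and the highest of the others is STE2 at 3.03 on control replicate 2.

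Most of the 12 induced fusion genes were lower with myriocin, while the kinase chain above them was not. Of the 35 genes 15 fell and 7 rose (limma on all genes, Benjamini-Hochberg adjusted p under 0.05), so that 22 of 35 passed, beside 54.4% of all genes, 28.8% of them lower and 25.5% higher. Their median log2 fold change was -0.40, against -0.03 over all genes. Among the 12 induced fusion genes 10 fell, 1 rose and 1 did not pass, with a median of -1.22. Among the 12 genes of the receptor and kinase cascade 2 fell, 5 rose and 5 did not pass, with a median of 0.09. With arrays scaled to the hybridisation controls, the fusion genes had a median of -0.90 and still numbered 10 lower and 1 higher. The cascade then had a median of 0.40, with 6 genes higher and 0 lower, and 0 lower also at an unadjusted limma p under 0.05. In that scaling 20 of the 35 passed, beside 51.9% of all genes, 12.0% lower and 39.9% higher. Changes of at least 1 log2 unit were found in 8 of the 12 fusion genes downward and 1 upward, beside 7.51% and 8.95% of all genes, and in 0 of the 12 cascade genes.

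**Figure D2:**
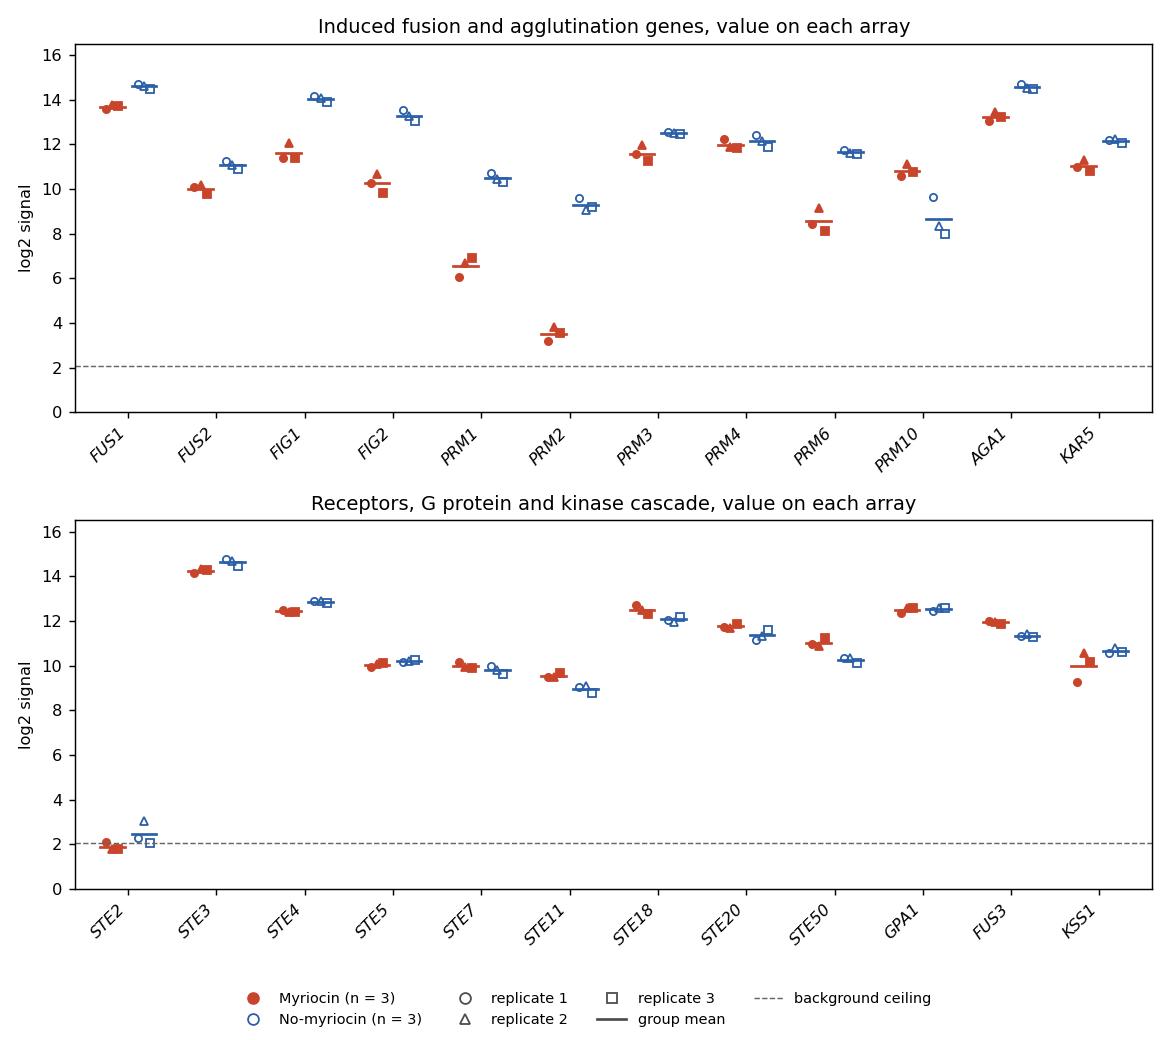
Log2 signal on each array for the 12 induced fusion genes (upper panel) and the 12 genes of the receptor and kinase cascade (lower panel). Filled red symbols are myriocin arrays and open blue symbols control arrays. Shapes are replicates, short lines group means and the dashed line the background ceiling. In 10 of the 12 upper genes all myriocin symbols lie under all control symbols, beside 35.8% of all genes. PRM10 is the reverse, as were 30.6% of all genes. In the lower panel no pair of group means is more than 0.77 apart.

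At the head of the pathway the receptor gene in use was slightly lower. STE3 (YKL178C) fell by 0.40 log2 units (limma SE 0.10, 3 arrays a group, adjusted p = 0.0161), and its groups did not overlap. The call was lost with arrays scaled to the hybridisation controls (log2 fold change -0.08, limma adjusted p = 0.614), without control replicate 2 (limma adjusted p = 0.0574) and without myriocin replicate 1 (limma adjusted p = 0.0519). STE2, near background, had a log2 fold change of -0.57 (SE 0.25, limma adjusted p = 0.104), and its groups overlapped. Without control replicate 2, the array at 3.03, that value was -0.28, and without control replicate 3 it was -0.77 with a limma adjusted p of 0.0432.

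The 3 subunits of the G protein moved in different ways. STE4, the gene of the β subunit that carries the signal onward, read 12.48, 12.39 and 12.40 on myriocin arrays and 12.88, 12.87 and 12.79 on control arrays. It fell by 0.43 (SE 0.07, limma adjusted p = 0.00291), a call lost with arrays scaled to the hybridisation controls (log2 fold change -0.11, limma adjusted p = 0.489). STE18, the gene of its γ partner, read 12.71, 12.47 and 12.29 with myriocin and 12.06, 11.95 and 12.19 without. It rose by 0.43 (SE 0.13, limma adjusted p = 0.0308), and every myriocin array lay above every control array, by a margin of 0.10. The call was lost when cultures of equal number were taken as pairs (limma adjusted p = 0.0557). It was also lost on leaving out replicate 1 or 2 of either group (limma adjusted p from 0.0676 to 0.0994). GPA1, which encodes the α subunit that holds the other 2 in check, read 12.35 to 12.60 on myriocin arrays and 12.45 to 12.60 on control arrays. Its log2 fold change was -0.03 (SE 0.09, limma adjusted p = 0.823).

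Below the G protein, 4 of the 7 genes for the scaffold, adaptor and kinases rose and 0 fell, also at an unadjusted limma p under 0.05. The risers were 57.1%, beside 25.5% of all genes. With arrays scaled to the hybridisation controls 5 of the 7 were higher, beside 39.9% of all genes. Separation of the groups with myriocin above was seen in 5 of the 12 cascade genes, beside 30.6% of all genes. Myriocin lay below in 3 of the 12, beside 35.8% of all genes. STE50, which encodes the adaptor that holds the kinase Ste11, read 10.98, 10.87 and 11.22 on myriocin arrays and 10.34, 10.33 and 10.10 on control arrays, and rose by 0.77 (SE 0.12, limma adjusted p = 0.00256). FUS3, the gene of the mating MAP kinase, read 12, 11.96 and 11.84 with myriocin and 11.31, 11.42 and 11.30 without. It rose by 0.59 (SE 0.08, limma adjusted p = 0.00142). The groups of both genes were well separated. STE11, the gene of the kinase at the top of the MAP kinase chain, read 9.49, 9.48 and 9.66 with myriocin and 9.04, 9.08 and 8.79 without, and rose by 0.57 (SE 0.11, limma adjusted p = 0.0055). These 3 calls held in every alternative fit. STE20, which encodes the p21-activated kinase that activates Ste11, read 11.74, 11.70 and 11.88 with myriocin and 11.15, 11.31 and 11.61 without. Its rise of 0.42 (SE 0.13, limma adjusted p = 0.0356) was lost without any 1 array other than control replicate 3 (limma adjusted p from 0.0606 to 0.105).

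The remaining 3 kinase and scaffold genes did not pass. STE7, the gene of the kinase between Ste11 and the MAP kinases, had a log2 fold change of 0.20 (SE 0.12, limma adjusted p = 0.207), and passed with arrays scaled to the hybridisation controls (0.52, limma adjusted p = 0.0123). Without control replicate 3 it was 0.10, and without myriocin replicate 1 0.12. STE5, the scaffold gene, had -0.17 (SE 0.08, limma adjusted p = 0.108), turning to 0.14 in that scaling. Its groups were 0.05 log2 units apart, while those of STE7 overlapped. KSS1, the gene of the MAP kinase used also in filamentous growth, differed most between arrays of a group. It read 9.25, 10.58 and 10.15 on myriocin arrays and 10.56, 10.79 and 10.59 on control arrays, so that myriocin replicate 1 lay apart and the groups overlapped. Its log2 fold change was -0.65 (SE 0.32, limma adjusted p = 0.132), or -0.28 without myriocin replicate 1 and -0.95 (limma adjusted p = 0.0370) without myriocin replicate 2. STE11, STE20 and STE50 also serve the osmosensing and filamentation pathways.

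The transcription factors of the response differed. STE12, the factor that binds the promoters of pheromone-induced genes, read 11.59, 11.81 and 11.56 on myriocin arrays and 11.76, 11.62 and 11.63 on control arrays, with a log2 fold change of -0.01 (SE 0.09, limma adjusted p = 0.905). Its groups overlapped throughout. KAR4 (YCL055W), which encodes a partner of Ste12 needed for genes of nuclear fusion, read 12.90, 13.02 and 12.70 with myriocin and 13.85, 13.90 and 13.80 without. It fell by 0.98 (SE 0.10, limma adjusted p = 0.000648), and did so in every alternative fit.

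Each of the 4 genes of cell fusion fell, beside 28.8% of all genes. PRM1 (YNL279W), which encodes a membrane protein acting when the plasma membranes of the partners fuse, read 6.06, 6.69 and 6.90 on myriocin arrays and 10.73, 10.44 and 10.32 on control arrays. The groups were separated by 3.42 log2 units, and PRM1 fell by 3.94 (SE 0.23, limma adjusted p = 0.000143), a 15.4-fold difference. FIG1, whose protein serves calcium entry during mating, read 11.41, 12.05 and 11.38 with myriocin and 14.17, 14.08 and 13.91 without, and fell by 2.44 (SE 0.19, limma adjusted p = 0.000322). FUS2, the gene of a cytosolic protein of the fusion site, read 10.10, 10.20 and 9.77 with myriocin and 11.28, 11.08 and 10.88 without, a fall of 1.06 (SE 0.15, limma adjusted p = 0.00194). FUS1, a membrane protein gene widely used as a reporter of the pathway, read 13.58, 13.75 and 13.72 with myriocin and 14.70, 14.60 and 14.49 without. It fell by 0.91 (SE 0.09, limma adjusted p = 0.000537). The groups of all 4 genes did not overlap, beside 35.8% of all genes with every myriocin array below every control array.

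Fusion of the nuclei followed the same direction in all 3 of its genes, beside 28.8% of all genes called lower. PRM2 (YIL037C), which encodes a pheromone-regulated membrane protein needed for efficient nuclear fusion, read 3.18, 3.82 and 3.55 on myriocin arrays and 9.60, 9.08 and 9.19 on control arrays. It remained above the ceiling of 2.07 on every myriocin array, and its groups were 5.26 log2 units apart. PRM2 fell by 5.77 (SE 0.20, limma adjusted p = 2.55e-05), a 54.7-fold difference and the deepest fall of the 35 genes. KAR5, the gene of a protein of the nuclear envelope, read 10.82 to 11.29 with myriocin and 12.05 to 12.24 without, and fell by 1.12 (SE 0.13, limma adjusted p = 0.00107). PRM3, whose protein also works at the nuclear envelope, read 11.58, 11.96 and 11.24 with myriocin and 12.55, 12.52 and 12.49 without, a fall of 0.92 (SE 0.18, limma adjusted p = 0.00602). Its spread was wider in the myriocin group.

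The adhesion genes were lower where they were clearly expressed. FIG2 (YCR089W), the gene of a cell wall adhesin of mating cells, read 10.29, 10.69 and 9.81 on myriocin arrays and 13.53, 13.26 and 13.04 on control arrays. It fell by 3.02 (SE 0.24, limma adjusted p = 0.000323), an 8.09-fold difference. AGA1, which encodes the wall-anchored subunit of a-agglutinin and is used by both mating types, read 13.06, 13.45 and 13.23 with myriocin and 14.69, 14.53 and 14.47 without, and fell by 1.32 (SE 0.12, limma adjusted p = 0.000486). Its groups were 1.02 log2 units apart. SAG1 fell by 0.57 (SE 0.09, limma adjusted p = 0.00284), a call lost with arrays scaled to the hybridisation controls (log2 fold change -0.26, limma adjusted p = 0.131). AGA2, near background, had a log2 fold change of -0.45 (SE 0.16, limma adjusted p = 0.0575), and passed when cultures of equal number were taken as pairs (limma adjusted p = 0.0243), with an intensity trend in the fit (limma adjusted p = 0.0397) and without control replicate 3 (limma adjusted p = 0.00795).

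The remaining 3 pheromone-regulated membrane proteins went separate ways. PRM6 (YML047C), which encodes a potassium transporter, read 8.44, 9.15 and 8.12 on myriocin arrays and 11.74, 11.64 and 11.59 on control arrays, and fell by 3.09 (SE 0.25, limma adjusted p = 0.000344), an 8.5-fold difference. PRM10 (YJL108C) was the 1 gene of the 12 induced fusion genes that went up. It read 10.60, 11.13 and 10.76 with myriocin and 9.66, 8.35 and 7.98 without, and rose by 2.17 (SE 0.43, limma adjusted p = 0.00692), a 4.49-fold difference, with control replicate 1 well above the other 2 control arrays. PRM4 read 12.25, 11.88 and 11.82 with myriocin and 12.44, 12.17 and 11.88 without, with overlapping groups and a log2 fold change of -0.18 (SE 0.18, limma adjusted p = 0.419). PRM4 lay between -0.33 and -0.04 with 1 array left out, and turned to 0.13 with arrays scaled to the hybridisation controls.

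**Figure D3:**
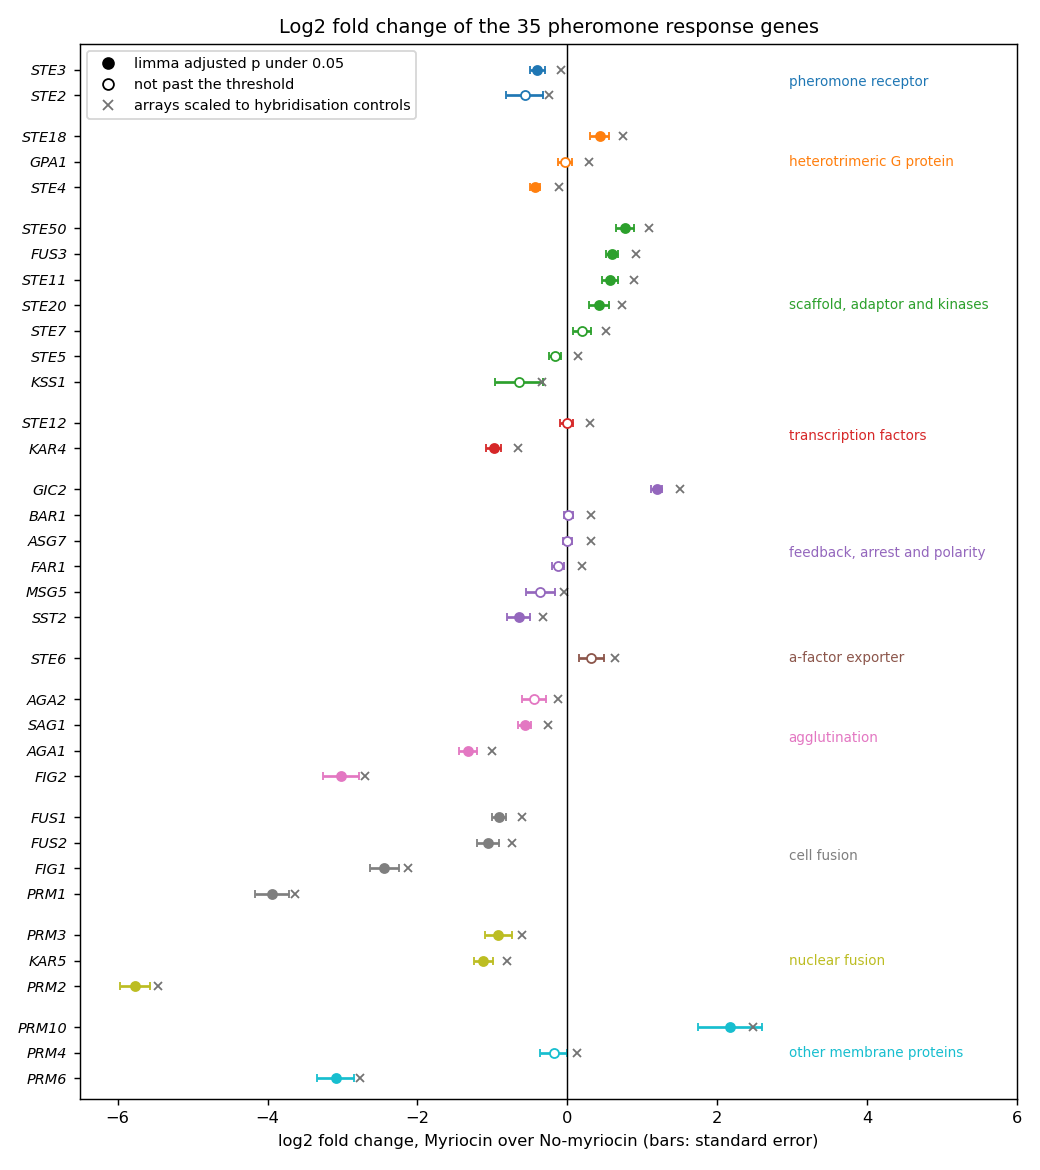
Log2 fold change of myriocin over control (horizontal axis) with its standard error for each of the 35 genes, grouped and coloured by role; filled circles passed limma's test, open circles did not, and grey crosses give the value with arrays scaled to the hybridisation controls. The cell fusion and nuclear fusion genes lie between -0.91 and -5.77, the scaffold, adaptor and kinase genes between -0.65 and 0.77.

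Genes that limit the signal or act beside it were mixed. GIC2 (YDR309C), which encodes an effector of the polarity GTPase Cdc42, had the tightest groups of the risers, at 13.26, 13.22 and 13.15 on myriocin arrays and 12.02, 12.07 and 11.99 on control arrays. It rose by 1.19 (SE 0.07, limma adjusted p = 0.000132). SST2, the gene of the RGS protein that switches the G protein off and itself a target of the pathway, read 10.37, 10.55 and 10.26 with myriocin and 11.22, 11.15 and 10.75 without. It fell by 0.65 (SE 0.15, limma adjusted p = 0.0114), a call lost with arrays scaled to the hybridisation controls (log2 fold change -0.33, limma adjusted p = 0.0810). Neither of the next genes passed, and their groups overlapped. MSG5, which encodes the phosphatase of Fus3, had a log2 fold change of -0.36 (SE 0.19, limma adjusted p = 0.146), or -0.16 without myriocin replicate 1. FAR1, the gene of the inhibitor that arrests the cell cycle, had -0.12 (SE 0.08, limma adjusted p = 0.271), turning to 0.20 with arrays scaled to the hybridisation controls, and -0.06 without myriocin replicate 1. STE6 had 0.32 (SE 0.17, limma adjusted p = 0.156) and passed with that scaling (0.63, limma adjusted p = 0.00769) and without control replicate 1 (0.49, limma adjusted p = 0.0190), and was 0.16 without control replicate 3. BAR1, just over the ceiling, and ASG7, under it, had log2 fold changes of 0.01 and 0.00 (SE 0.06 each). In all, 16 of the 22 calls among the 35 genes held in direction and threshold in every alternative fit that included the gene. The exceptions were STE3, STE4, STE18, STE20, SAG1 and SST2. PRM1 and PRM2 were not in the fit that left out the dimmest 25% of genes. Stricter thresholds are not part of this count and are given further below.

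Other genes of the mating pathway were read from lists that hold none of the 35. Their counts stand beside 28.8% of all genes lower and 25.5% higher as deposited, and 12.0% lower and 39.9% higher with arrays scaled to the hybridisation controls. Of the 4 pheromone genes, MF(ALPHA)2, the minor gene of the α pheromone, read 14.52, 14.61 and 14.36 with myriocin and 14.99, 15.07 and 14.94 without, and fell by 0.51 (limma adjusted p = 0.00429; 0.266 with arrays scaled to the hybridisation controls). MF(ALPHA)1, MFA1 and MFA2 did not pass, with log2 fold changes of -0.07, 0.00 and -0.01. Pheromone processing had 6 of 10 genes lower and 2 higher, or 60% and 20%. RCE1, which encodes a protease that trims farnesylated proteins, read 8.45, 9.13 and 9.22 with myriocin and 11.28, 11.21 and 10.90 without, and fell by 2.19 (SE 0.23, limma adjusted p = 0.000682). STE14, the gene of the methyltransferase that acts next on the same proteins, fell by 1.27 (SE 0.17), while AXL1, a protease gene of a pheromone maturation, rose by 1.23 (SE 0.22) and RAM2, a farnesyltransferase subunit gene, by 0.72 (SE 0.09). With arrays scaled to the hybridisation controls the count was 3 lower and 2 higher.

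The further list of nuclear fusion machinery had 8 of 13 genes lower and 0 higher (1 higher at an unadjusted limma p under 0.05). With arrays scaled to the hybridisation controls it had 7 lower and 2 higher. As deposited 61.5% of the list was lower, beside 28.8% of all genes, and its median was -0.84, against -0.03 over all genes. Scaled to those controls 12.0% of all genes were lower and 39.9% higher. KAR1, the gene of a spindle pole body protein, read 8.29, 8.55 and 8.47 with myriocin and 9.61, 9.82 and 9.75 without, and fell by 1.29 (SE 0.10, limma adjusted p = 0.000289). KAR3, a kinesin gene, fell by 1.08 (SE 0.21, limma adjusted p = 0.00621). This list also holds genes of the endoplasmic reticulum, SEC63, SEC72, SCJ1 and JEM1, at -0.95, -0.85, -1.08 and -0.93, which serve protein import and folding in every cell and are given here after their values were seen.

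Lists for polarity and for dampening the signal had medians of 0.04 and 0.09, against -0.03 over all genes. In polarity and morphogenesis 6 of 16 genes rose and 2 fell, or 37.5% and 12.5% beside 25.5% and 28.8% of all genes, with BOI2 at 1.40 (SE 0.19) and RGA2 at 0.70 (SE 0.11), and BOI1 at -0.78 (SE 0.11) and BEM3 at -0.37 (SE 0.12). The call of BEM3 was lost with arrays scaled to the hybridisation controls (limma adjusted p = 0.80) and without any 1 array other than control replicate 1 (limma adjusted p from 0.0523 to 0.101). Among genes of signal attenuation 4 of 12 rose and 1 fell, or 33.3% and 8.33%. PTP3, which encodes a tyrosine phosphatase of Fus3, read 10.60, 11.02 and 10.89 with myriocin and 9.54, 9.43 and 9.75 without, and rose by 1.27 (SE 0.14, limma adjusted p = 0.000825). AFR1, a gene of receptor desensitisation and of the mating projection, rose by 0.45 (SE 0.12, limma adjusted p = 0.0200), a call lost without control replicate 2 or myriocin replicate 1 or 2 (limma adjusted p from 0.0559 to 0.0674). MPT5, an RNA-binding protein gene, fell by 0.52 (SE 0.11; limma adjusted p = 0.00970, or 0.281 with arrays scaled to the hybridisation controls). With that scaling, in which 39.9% of all genes were higher and 12.0% lower, 8 polarity genes rose and 1 fell, while 6 attenuation genes passed upward and 0 downward, also 0 at an unadjusted limma p under 0.05.

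For the next 3 lists the shares of all genes were 25.5% higher and 28.8% lower as deposited, and 39.9% higher and 12.0% lower with arrays scaled to the hybridisation controls. Among regulators of transcription 1 of 8 genes rose and 1 fell (12.5% each), SIN3 by 0.49 (SE 0.07) and MOT2 by 0.39 (SE 0.09; limma adjusted p = 0.620 with arrays scaled to the hybridisation controls), and with that scaling 6 passed upward and 0 downward, also 0 at an unadjusted limma p under 0.05. The cell fusion partners had 2 of 9 higher and 1 lower (22.2% and 11.1%), or 5 higher and 1 lower with that scaling: RVS167 at 0.78, CHS1 at 0.23 and the glycerol channel gene FPS1 at -0.77. CHS1 lost its call when cultures of equal number were taken as pairs (limma adjusted p = 0.0585), and on leaving out any 1 array but myriocin replicate 1 (limma adjusted p from 0.0605 to 0.0930). Of the filamentation and osmosensing branches, which share Ste20, Ste50 and Ste11 with mating, 4 of 13 genes were called higher and 4 lower (30.8% each), or 5 higher and 1 lower with arrays scaled to the hybridisation controls. FLO11, the flocculin gene of filamentous growth, read 11.40, 10.66 and 10.73 with myriocin and 4.05, 3.25 and 4.35 without, a rise of 7.05 (SE 0.33, limma adjusted p = 7.95e-05). OPY2, the membrane anchor gene of Ste50, rose by 1.19 (SE 0.09, limma adjusted p = 0.000275), SHO1, an osmosensor gene, fell by 0.91 (SE 0.16, limma adjusted p = 0.00428), and YPD1 fell by 0.42 (limma adjusted p = 0.595 with that scaling).

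Of 9 further pheromone-regulated genes 4 fell and 1 rose, or 44.4% and 11.1%, beside 28.8% and 25.5% of all genes. With arrays scaled to the hybridisation controls 1 fell and 3 rose, beside 12.0% and 39.9% of all genes. PRM7 read 9.91, 11.28 and 11.11 on myriocin arrays and 12.03, 12.36 and 13.00 on control arrays, and fell by 1.70 (SE 0.42, limma adjusted p = 0.0156). SCW10, a cell wall glucanase gene, rose by 0.39 (SE 0.08, limma adjusted p = 0.00729). PCL2, a cyclin gene, fell by 0.73 (SE 0.24, limma adjusted p = 0.0439), and lost its call with that scaling (limma adjusted p = 0.179) and with a floor at the background ceiling (limma adjusted p = 0.0706). It also lost it on leaving out any 1 array but myriocin replicate 2 (limma adjusted p from 0.0585 to 0.114).

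**Figure D4:**
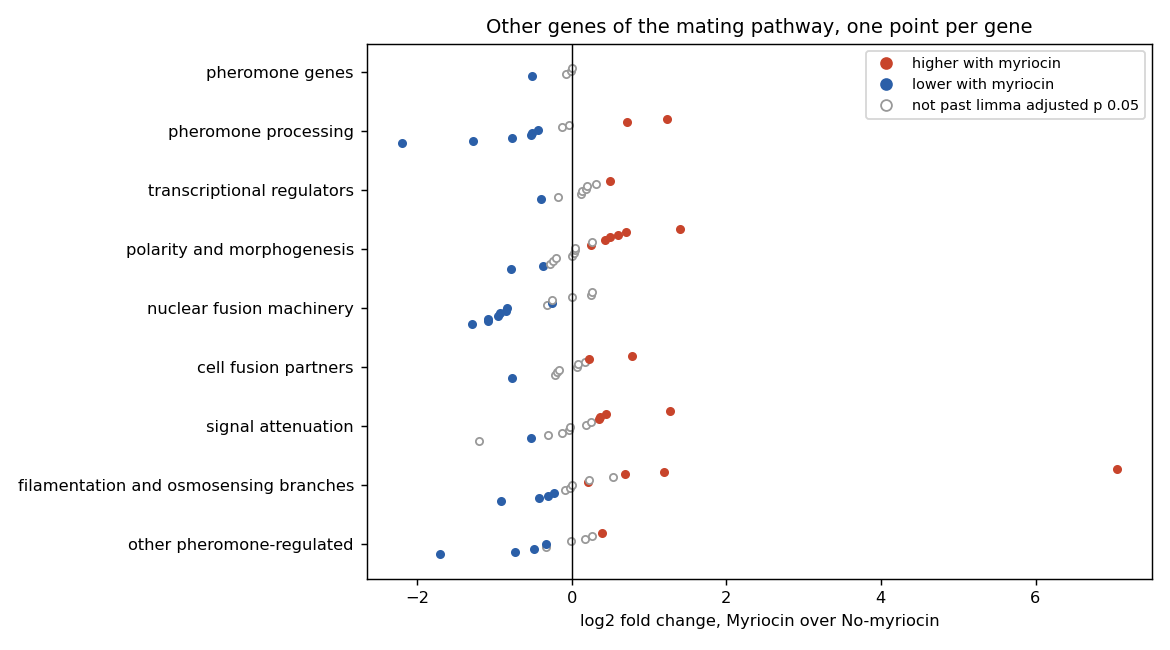
Log2 fold change of myriocin over control (horizontal axis) for each gene of 9 other lists of the mating pathway, 1 point per gene; red points rose, blue points fell and open points did not pass limma's test. The nuclear fusion machinery holds 8 blue points and 0 red ones in the deposited values, and FLO11 lies alone at 7.05.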

How the data were processed

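Gene expression was measured on 6 single-colour arrays, 1 per culture. The authors deposited log2 signals, 1 per probe set, already normalised; the steps behind them are not stated beyond this, and the submitters' processing notes name Partek. The authors' deposited table also gives a p-value, a ratio and a signed fold score per probe set, used here only for gene symbols and to check the scale: log2 of its ratio equals the difference of group means to within 8.48e-05.

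Of 5900 probe sets, 184 were controls, 79 named several genes and 192 were unnamed here. The brightest probe set over the 6 arrays stood for each of 5420 genes, of which 24 had more than 1. Coordinates are left out because the array's genome build is not stated. No sequence was used here, so the planned description of promoter motifs was not made. Probe sets can also read paralogs or antisense transcripts.

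The test was two-sided and without covariates, by lmFit and eBayes of limma 3.58.1 (R 4.3.3), adjusted over all 5420 genes. In simulated arrays with these means and spreads, 5220 of 5420 genes were left unchanged, and 11 of the 5220 were called. Recovered were 24 of 50 genes changed by 0.5 log2 units, 88 of 100 changed by 1 and 46 of 50 changed by 2. In the data 54.4% of all genes passed, so the p cutoff differed and these rates cannot be carried over to this fit. Cultures with equal replicate numbers deviated together from their group means across genes, with correlations of 0.169, 0.233 and 0.175, and were treated as paired in an alternative. The members and lists were chosen with earlier results of these data known. All 35 genes are named, with the pheromone genes, the mating-type markers and the 2 called genes with the highest and the 2 with the lowest fold change in each further list. Figures were drawn with matplotlib 3.10.9.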

Additional observations from a re-analysis of the deposited data

How the results depend on the processing

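Alternatives were quantile normalisation, equal array medians, arrays scaled to the hybridisation controls, the dimmest 25% of genes left out, background genes left out, values floored at background, probe sets of a gene averaged, a robust prior with intensity trend, the replicate block, each array left out, and stricter thresholds. The fits with 1 array left out and the threshold on the size of change are given apart from the others. Under the others the 15 genes called lower numbered between 11 and 16, and the 7 called higher between 5 and 9. With 1 array left out, 14 to 17 were lower and 5 to 7 higher. With a change of at least 1 log2 unit asked for as well, 8 were lower and 2 higher. With the replicate block 16 were lower and 6 higher: STE18 lost and AGA2 gained a call, CHS1 of the further lists lost its call, and the block changed no other call among the named genes. Scaling to the hybridisation controls moved the medians to 0.40 for the cascade, 0.20 for the other 11 genes (-0.12 as deposited) and -0.90 for the fusion genes. Leaving out the dimmest genes moved them to 0.20 for the cascade and -0.36 for the other genes, since STE2, AGA2, BAR1, ASG7 and others are then gone. Sign changes were seen in genes that did not pass. With the control scaling log2 fold changes turned to 0.31 for ASG7, MFA1 and MFA2, 0.30 for STE12, 0.29 for GPA1, 0.24 for MF(ALPHA)1, 0.20 for FAR1, 0.14 for STE5, 0.13 for PRM4 and 0.10 for NDT80. Quantile normalisation gave -0.05 for IME1 and 0.02 for MFA1. With 1 array left out the range was -0.02 to 0.01 for ASG7, -0.01 to 0.03 for BAR1, -0.07 to 0.05 for GPA1, -0.05 to 0.06 for IME1, -0.03 to 0.03 for MFA1, -0.02 to 0.01 for MFA2, -0.41 to 0.06 for NDT80 and -0.09 to 0.03 for STE12. The cause of these changes was not tested. Low signal limits what can be said of ASG7, MFA1, MFA2, BAR1, STE2 and AGA2, and the top of the range that of MF(ALPHA)1.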

Other observations

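Genes that mark ploidy and meiosis were read beside the mating genes. Of 8 haploid markers, 6 of them among the 35 genes, 4 rose, 1 fell and 3 did not pass. Of 4 meiotic markers 2 fell and 2 did not pass. With arrays scaled to the hybridisation controls, 4 haploid markers were higher and 0 lower, and 2 meiotic markers were lower and 0 higher. Both zeros held at an unadjusted limma p under 0.05. All marker counts here stand beside 25.5% of all genes higher and 28.8% lower as deposited. With that scaling the shares were 39.9% and 12.0%. HO, the endonuclease gene of mating-type switching, read 9.57, 9.72 and 9.39 on myriocin arrays and 7.27, 8.43 and 8.75 on control arrays, and rose by 1.41 (SE 0.37, limma adjusted p = 0.0200; 0.0541 without myriocin replicate 1 and 0.0579 without myriocin replicate 2). RME1, which encodes the repressor of meiosis in haploid cells, rose by 0.54 (SE 0.11, limma adjusted p = 0.00819). IME2, a kinase gene of early meiosis, fell by 1.55 (SE 0.25, limma adjusted p = 0.00335) and SPO11, the gene of the nuclease of meiotic recombination, by 0.83 (SE 0.17, limma adjusted p = 0.00739). IME1 and NDT80, both regulators of meiosis, had log2 fold changes of 0.01 and -0.22 and did not pass. AFB1, an α-specific gene, fell by 0.67 (SE 0.08, limma adjusted p = 0.00129). The summed signal of 5 α-specific genes, on the linear scale, lay between 117400 and 127400 on myriocin arrays and between 152500 and 164400 on control arrays. As deposited 4 of the 5 were called lower, with a median log2 fold change of -0.51, and with arrays scaled to the hybridisation controls 1 of the 5, with a median of -0.19.

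The order of arrays within a group was similar across the 12 induced fusion genes. Control replicate 1 was the highest control array for 11 of the 12 and control replicate 3 the lowest for 11. Myriocin replicate 2 was the highest myriocin array for 10 of the 12. The median distance of a gene from its own group mean was 0.16 on control replicate 1, -0.13 on control replicate 3 and 0.28 on myriocin replicate 2, while its median distance from the control mean was -1.33, -1.0 and -1.34 on the 3 myriocin arrays. PRM10, the gene that rose, was among those highest on control replicate 1 and on myriocin replicate 2. In the 12 cascade genes no array was the highest of its group for more than 5, and control replicate 3 was the lowest control array for 7.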
